A study of Equus caballus with 25 samples.

Results

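Horses with severe equine asthma (SEA, diagnosed as RAO, n = 8) were compared directly with horses with mild equine asthma (MEA, diagnosed as IAD, n = 10), on 18 of the 25 arrays of the study. The 7 healthy control horses (CTRL) stayed out of every test and their levels are given beside the results. Each array held RNA from the cells of the bronchoalveolar lavage (BAL) fluid of 1 horse, collected through an endoscope from both primary bronchi, with no pooling of horses. SEA-affected horses had a chronic history with cough and laboured breathing. MEA-affected horses had poor performance and a neutrophilic lavage, without mast cells or eosinophils as the prevailing inflammatory cells. All diseased horses were clinical cases sampled as they presented, and all horses were sedated with xylazine before endoscopy. Cytology was part of how MEA-affected horses were chosen, which limits their range of neutrophil percentages. By the study's methods the SEA-affected horses were older than the MEA-affected horses, so age and disease cannot be told apart. Males and females were balanced in both groups, and most horses of both were saddle horses. The CTRL horses were as old as the MEA-affected horses, and all were standardbreds. Nearness of CTRL levels to those of MEA therefore cannot be told apart from age. As 1 array was made per horse, p-values measure the spread between horses.

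Equine asthma is a noninfectious inflammation of the lower airways of horses, for which stabling, with dust from hay and bedding, is a predisposing factor. A form tied to summer pasture is also counted under the name. The severe form brings airway obstruction at rest and a lavage rich in neutrophils, whereas in the mild form resident macrophages prevail. Alveolar macrophages take up inhaled particles and release cytokines and chemokines, neutrophils arriving from blood release proteases and oxidants, and dendritic cells and lymphocytes carry the adaptive response. In a mixed sample of this kind, fewer cells of a type and less RNA per cell cannot be told apart.

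CD68, a lysosomal glycoprotein taken here as a macrophage marker, was above background on all 18 arrays. Its log2 intensity was 15.25 ± 0.61 for SEA and 15.08 ± 0.57 for MEA (mean ± SD over the 8 and 10 horses). This marker alone does not measure the share of macrophages. Between 66.6% and 90.8% of the spots were well above background on the SEA arrays and between 58.2% and 84.1% on the MEA arrays. The array of horse SEA 1 stood apart from the rest of its group, with a median correlation of 0.852 with the other SEA arrays, and carried the lowest mean of 15 neutrophil marker transcripts in SEA (7.86). Horse MEA 3 carried the highest mean of these markers among all 25 horses (12.15). Results that rest on these horses are therefore also given without them. Both were singled out after their values were seen, partly on genes that differ between the groups, so leaving them out widens the contrast by construction.

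The array carries a 60-base probe for each of 7238 Ensembl transcripts, spotted 2 times. The probes of the transcripts on which the comparison turns are printed below, from 5′ to 3′ as on the array. They show which stretch of each transcript was measured and which transcripts cannot be told apart, since both transcripts of MAP3K14 and both of MYBPC3 have 1 probe sequence in common. No genome position is given for them here.
CHAC1: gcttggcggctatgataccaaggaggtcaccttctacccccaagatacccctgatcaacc
PNPLA8: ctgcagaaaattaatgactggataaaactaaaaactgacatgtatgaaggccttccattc
TRIB3: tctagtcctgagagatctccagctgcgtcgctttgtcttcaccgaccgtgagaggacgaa
EGR1: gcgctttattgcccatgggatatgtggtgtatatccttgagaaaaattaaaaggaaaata
MMP1: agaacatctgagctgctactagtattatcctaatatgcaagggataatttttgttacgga
SPP1: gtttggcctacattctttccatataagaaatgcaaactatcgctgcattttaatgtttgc
SLAMF9: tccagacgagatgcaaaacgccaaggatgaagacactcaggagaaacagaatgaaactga
RELT: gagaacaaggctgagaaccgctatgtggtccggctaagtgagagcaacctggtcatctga
CD1E: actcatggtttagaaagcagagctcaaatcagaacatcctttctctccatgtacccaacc
CD1C: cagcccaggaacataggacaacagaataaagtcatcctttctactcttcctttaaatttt
MAP3K14: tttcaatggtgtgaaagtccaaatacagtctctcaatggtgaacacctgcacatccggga
MYBPC3: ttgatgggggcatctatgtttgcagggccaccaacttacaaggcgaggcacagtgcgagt
TREX1: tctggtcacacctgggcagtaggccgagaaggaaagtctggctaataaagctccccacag
TRPV4: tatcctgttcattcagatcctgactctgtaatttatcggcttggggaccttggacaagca

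Of 4930 transcripts tested, 101 (2.05%) were called between the diseases, which here means an adjusted p under 0.1 with a change of 1.5-fold or more, 65 (1.32%) higher and 36 (0.73%) lower in SEA. They rest on 97 different probe sequences, and the adjusted p alone would have called 102 (2.07%). Without adjustment, 1021 transcripts (20.7%) had a p below 0.05. Genes of stress signalling, early transcription, cytokines, antigen presentation and matrix breakdown were among the higher transcripts, and interferon-stimulated and histone genes among the lower. The typical standard error of a called difference was 0.30 on the log2 scale. The groups were completely separated for only 3 transcripts (0.0609%), and a called transcript that was higher in SEA typically placed 5 of the 8 SEA-affected horses above every MEA-affected horse. The CTRL mean lay nearer MEA than SEA for 93 of the 101 (92.1%), against 66.2% of all tested transcripts and 89.1% of those with a symbol, which 88 of the 101 have. The count itself was unstable. It was 0 with the slide as a block and 2 with the scan date as a block, although all 101 kept their direction and an unadjusted p below 0.05 under both. It ranged from 2 without SEA 2 or MEA 9 to 554 without MEA 3, and reached 716 (14.5%) without SEA 1 and MEA 3, of which 523 (10.6%) were higher and 193 (3.91%) lower, all 101 included.

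**Figure D1:**
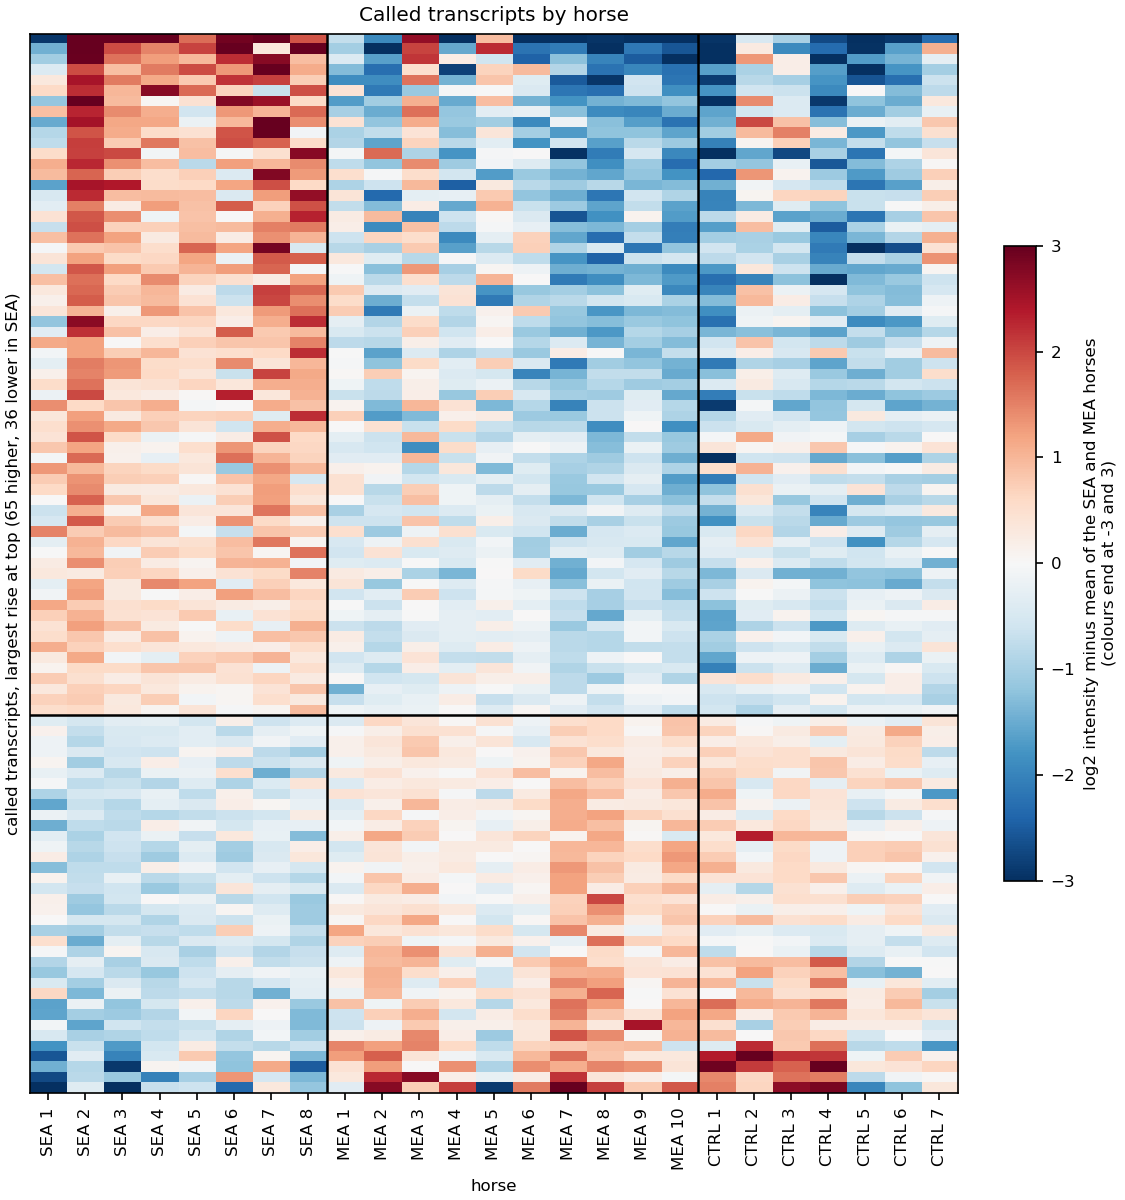
Heat map of the 101 called transcripts (vertical axis, ordered by the difference) in the 25 horses (horizontal axis, by group), as log2 intensity minus the mean of the 18 diseased horses. SEA 2 lies on the SEA side of the group midpoint for 100% of the transcripts and MEA 8 for 0%, while SEA 1 does so for 62.4% and MEA 3 for 40.6%.

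The arrangement was not the same in all horses. Measured against the midpoint between the group means, SEA 2 lay on the SEA side for 100% of the called transcripts, SEA 6 for 72.3% and SEA 1 for 62.4%. Among MEA-affected horses the share ran from 0% in MEA 8 to 40.6% in MEA 3, and among CTRL horses from 7.92% to 37.6%. Over all tested transcripts, which axis of variation followed the diagnosis rested on SEA 1. The leading principal component held 28.7% of the variance, and the groups did not differ in it beyond their spread (difference 5.69, exact permutation test over 43758 splits, two-sided p = 0.712). The second held 23.9%, with a mean score of 21.2 ± 17.4 (SD) in SEA and -16.9 ± 22.9 in MEA (exact permutation p = 0.00165, adjusted over 3 components 0.00494), and the scores overlapped. Without SEA 1 the difference was 37.4 in the leading component (exact permutation p = 0.00807) and 13.9 in the second (p = 0.245).

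Genes of the integrated stress response, the programme by which a cell that is short of amino acids or has misfolded protein slows translation, were higher in SEA. Of 13 tested transcripts, 4 were called higher and 0 lower. The median difference was 0.79, against -0.04 over all tested transcripts and 0.09 over those with a symbol. Of the 1684 tested transcripts with a symbol, 61 were called higher and 27 lower, the background for the counts of this and the later lists. Symbols were taken from the study's own tables of transcripts called changed in these horses, so here and below a list with symbols is not independent evidence of its direction. CHAC1, which breaks down glutathione and is switched on by this response, reached 5.56 to 7.05 in SEA (median 6.38) and 4.15 to 5.73 in MEA (median 4.73). Its difference of 1.52 ± 0.24 (SE), a 2.87-fold rise, had the smallest adjusted p of all transcripts (0.0134, shared with PNPLA8), and it remained a call with the scan date as a block (adjusted p = 0.0956). The groups overlapped only between 5.56 and 5.73, and the CTRL mean was 5.12. TRIB3, a pseudokinase induced by the same pathway, was between 5.61 and 9.01 in SEA (median 7.62) and between 4.0 and 6.71 in MEA (median 5.40), a rise of 2.29 ± 0.47 (adjusted p = 0.0544). PPP1R15A, the subunit that ends the response by removing the phosphate from eIF2 alpha, rose by 1.09 ± 0.26 and the transcription factor ATF5 by 1.03 ± 0.28. DDIT3, the transcription factor CHOP upstream of TRIB3 and CHAC1, missed the threshold in spite of a larger difference (2.36 ± 0.70, adjusted p = 0.112). Its range in SEA was 8.61 to 13.43 and in MEA 7.43 to 12.91, with SEA 1 lowest in its group, and without SEA 1 and MEA 3 it was 3.2 ± 0.50 (adjusted p = 0.00102). The mean over the 13 transcripts lay between 9.002 and 9.94 in SEA and between 8.0 and 8.969 in MEA, so that no horse of the groups overlapped.

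**Figure D2:**
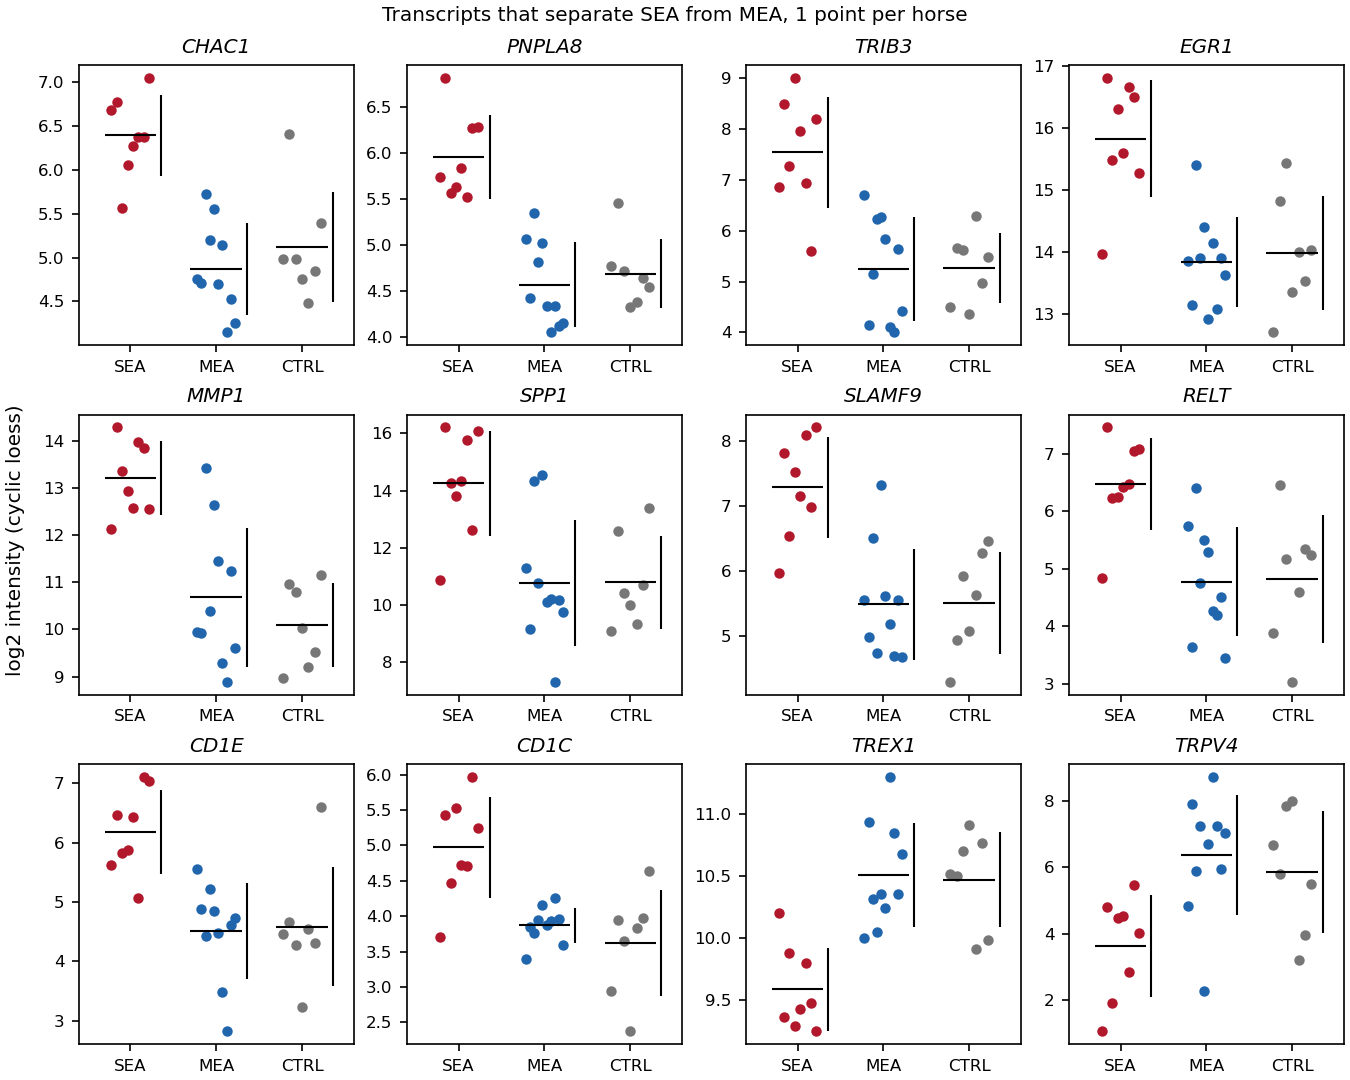
Log2 intensity (vertical axis) of 12 transcripts in each SEA, MEA and CTRL horse (points), with the group mean (horizontal line) and 1 SD on either side (vertical bar). PNPLA8 is the only one of the 12 in which the SEA and MEA horses do not overlap.

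PNPLA8, a phospholipase of membranes, was one of the 3 transcripts whose groups did not overlap. It was named after its values were seen, like TECPR2 and ENSECAT00000023848, the other two. PNPLA8 ran from 5.52 to 6.82 in SEA (median 5.79) and from 4.05 to 5.35 in MEA (median 4.39). Every SEA-affected horse exceeded every MEA-affected horse, the CTRL mean was 4.69, and the difference was 1.39 ± 0.22 (adjusted p = 0.0134). TECPR2, which takes part in autophagy, was separated by a much narrower gap, with 4.54 to 5.68 in MEA and 5.71 to 6.70 in SEA. On its other transcript, ENSECAT00000022829, which has the same probe, the groups overlapped, with 7 of 8 SEA-affected horses above every MEA-affected horse, so the separation of TECPR2 was within the error of a repeated probe.

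Immediate early genes, which are transcribed within minutes of a stimulus, were higher in SEA. Of 22 tested transcripts 5 were called higher and 0 lower, and the median difference was 1.06. All 22 had a higher mean in SEA, against 2328 of all 4930 tested transcripts. The number among tested transcripts with a symbol was not counted, and their median difference was 0.09. EGR1, a zinc finger transcription factor, lay between 13.97 and 16.81 in SEA (median 15.96), between 12.92 and 15.40 in MEA (median 13.88) and at a mean of 13.99 in CTRL, a 3.97-fold rise (log2 1.99 ± 0.37, adjusted p = 0.0544). The stress kinase PLK3 rose by 1.65 ± 0.41 and the Krüppel-like factors KLF6 and KLF10 by 1.38 ± 0.36 and 0.83 ± 0.20. DUSP5, a phosphatase that shuts off nuclear ERK, rose by 1.01 ± 0.28. JUN, a subunit of AP-1, differed by 0.32 ± 0.22 (adjusted p = 0.39). The list depended strongly on the horses that stood apart, since 18 of the 22 were called higher without SEA 1 and MEA 3. In that fit 10.6% of all transcripts were called higher. The share among transcripts with a symbol, from which the lists are drawn, was not computed for it. In the main fit 61 of the 65 higher calls had a symbol, so 10.6% is likely too low a background for such counts here and below.

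In the list of 14 NF kappa B transcripts the called ones were those of 1 gene. MAP3K14, the kinase NIK that starts non-canonical NF kappa B signalling, rose by 1.59 ± 0.41 and 1.56 ± 0.37 in 2 transcripts that share 1 probe, so 2 of 14 transcripts were called from 1 probe sequence. TAB2, an adaptor of the kinase TAK1 in canonical signalling, was not in the list and was also called (0.997 ± 0.26, named after its values were seen). On the probe of ENSECAT00000015646 the SEA levels were 3.30 to 6.14 (median 4.97) and the MEA levels 2.16 to 4.87 (median 3.36), close to background in MEA, where 6 of 10 arrays were above it. The other members did not pass, among them 2 subunits, NFKB1 (0.03 ± 0.30) and NFKB2 (0.35 ± 0.37), and the inhibitor NFKBIA (0.62 ± 0.36). These 3 lay below the list median of 0.75. All 14 transcripts had a higher mean in SEA, and 8 of 14 had an unadjusted p below 0.05. Without SEA 1 and MEA 3, 11 of 14 were called. In the TNF receptor superfamily 1 of 10 transcripts was called. RELT, a receptor of blood cells, ran from 4.85 to 7.46 in SEA (median 6.45) and from 3.45 to 6.41 in MEA (median 4.63). SEA 1 was far below the other SEA-affected horses, and the difference of 1.7 ± 0.40 (adjusted p = 0.0648) grew to 2.12 ± 0.33 without SEA 1 and MEA 3. FAS, the death receptor, had differences of -0.22 ± 0.31 and -0.31 ± 0.34 in its 2 transcripts.

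**Figure D3:**
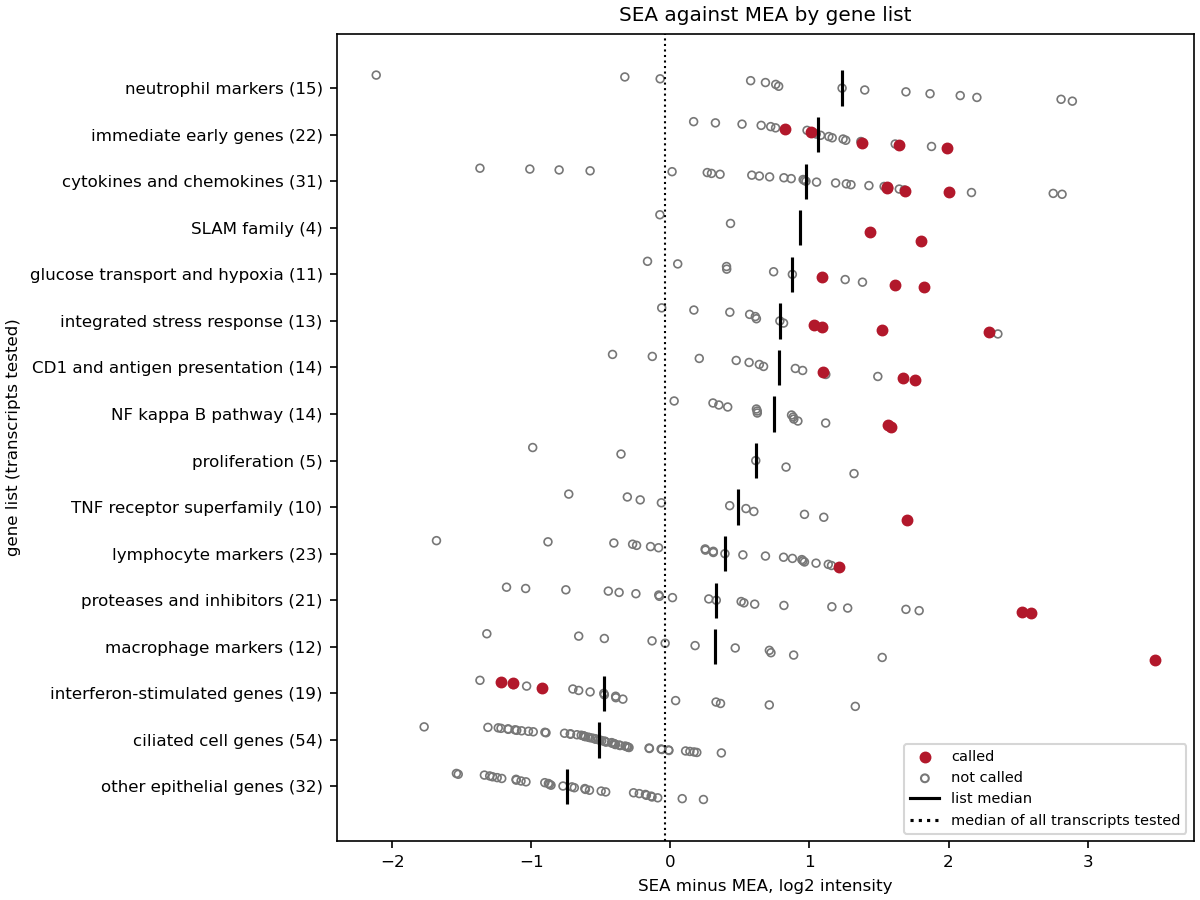
Difference SEA minus MEA in log2 intensity (horizontal axis) for every tested transcript of each gene list (vertical axis), with called transcripts filled, the list median as a bar and the median of all tested transcripts (-0.04) dotted. Immediate early and NF kappa B genes lie wholly to the right of 0, and interferon-stimulated and epithelial genes mostly to its left.

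Among cytokines and chemokines, 4 of 31 transcripts were called higher and 0 lower, with a median difference of 0.97. CCL20, which attracts dendritic cells and Th17 lymphocytes through CCR6, was between 7.76 and 12.59 in SEA (median 9.45) and between 6.94 and 9.04 in MEA (median 7.51), a 4.01-fold rise (2.0 ± 0.49, adjusted p = 0.0767). Here the CTRL mean of 8.58 lay between the diseases. IL1A, an alarmin that signals through the interleukin 1 receptor, rose by 1.69 ± 0.43, from a median of 12.42 in MEA to 14.12 in SEA. CLCF1, a cytokine of the interleukin 6 family, rose by 1.56 ± 0.38, and TNFSF14, the ligand LIGHT, by 1.56 ± 0.41. The receptor chain IL18R1, through which interleukin 18 acts, ran from 4.21 to 8.22 in SEA (median 6.71) and from 2.06 to 7.40 in MEA (median 3.83), a 6.13-fold rise (2.62 ± 0.63, adjusted p = 0.0712), and the log2 difference was 3.34 ± 0.46 without SEA 1 and MEA 3. In MEA the probe was above background on 6 of 10 arrays. The neutrophil chemoattractant CXCL8 missed the threshold (1.19 ± 0.44, adjusted p = 0.153), with 14.46 to 16.92 in SEA and 14.14 to 17.72 in MEA, where MEA 3 held the highest level of both groups. Without SEA 1 and MEA 3 it was called at 1.74 ± 0.27 (adjusted p = 0.000999), and so were 20 of the 31 transcripts. The difference in TNF itself was 0.01 ± 0.29.

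Of 11 transcripts of glucose transport and hypoxia, 3 were called higher and 0 lower (median 0.88). VEGFA, the growth factor of endothelial cells, rose by 1.82 ± 0.49 (adjusted p = 0.0889) and EDN1, the constrictor peptide endothelin 1, by 1.62 ± 0.38 (adjusted p = 0.0712). EDN1 was between 6.26 and 7.67 in SEA (median 6.79) and between 3.88 and 7.03 in MEA (median 5.22). HIF1AN, the hydroxylase that restrains HIF1 alpha when oxygen is present, rose as well, by 1.09 ± 0.30. Outside this list, VCAM1, the adhesion molecule that leukocytes bind on activated endothelium, rose by 1.93 ± 0.54 (adjusted p = 0.0970).

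The largest rise of a transcript with a symbol was in SPP1, and 2 transcripts of proteases and inhibitors were called higher. SPP1, the matrix protein and cytokine osteopontin made by activated macrophages, spread widely in both diseases, from 10.87 to 16.20 in SEA (median 14.31) and from 7.31 to 14.56 in MEA (median 10.19). The groups overlapped, and the 11.2-fold rise (3.48 ± 0.89, adjusted p = 0.0857) passed the threshold narrowly. Without SEA 1 and MEA 3 the rise was 4.36 ± 0.77 on the log2 scale. MMP1, the collagenase that cleaves fibrillar collagen, was between 12.12 and 14.28 in SEA (median 13.15) and between 8.89 and 13.42 in MEA (median 10.16), a 5.78-fold rise (2.53 ± 0.54, adjusted p = 0.0548). All SEA-affected horses were above the MEA median, and the CTRL mean was 10.09. The serpin transcript ENSECAT00000003487, for which the tables give both SERPINB10 and SERPINB2, rose by 2.59 ± 0.55 (adjusted p = 0.0544), with 6.99 to 10.54 in SEA and 4.60 to 8.34 in MEA. The list held 21 tested transcripts, with 0 called lower and a median of 0.33. MMP9, the gelatinase stored in neutrophil granules, differed by 1.69 ± 0.61 (adjusted p = 0.15) and TIMP1, the common MMP inhibitor, by 0.51 ± 0.44. The largest change of all belonged to ENSECAT00000020635, which has no symbol here. It had 1.45 to 8.51 in SEA (median 7.53) and 0.45 to 7.01 in MEA (median 1.41), with 7 of 8 and 3 of 10 arrays above background, and an 18.5-fold difference (4.21 ± 0.96, adjusted p = 0.0632). SEA 1 held the lowest level of SEA, far from the other horses, and without SEA 1 and MEA 3 the log2 difference was 5.46 ± 0.61.

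CD1 molecules, which present lipid antigens to T cells, and CCR7, which guides mature dendritic cells to lymph nodes, gave the 3 called transcripts among 14 of antigen presentation (0 lower, median 0.78). CD1E was between 5.07 and 7.10 in SEA (median 6.16) and between 2.82 and 5.56 in MEA (median 4.67), a 3.19-fold rise (1.67 ± 0.35, adjusted p = 0.0544). CD1C reached 3.71 to 5.97 in SEA (median 4.98) and stayed between 3.4 and 4.25 in MEA (median 3.9), with 7 of 8 and 6 of 10 arrays above background (1.10 ± 0.24, adjusted p = 0.0589). CCR7 rose by 1.76 ± 0.46 (adjusted p = 0.0857). Among the members that did not pass, CD74, the invariant chain, differed by 0.47 ± 0.30. CIITA, the master regulator of class II genes, differed by -0.13 ± 0.34 and the costimulator CD80 by -0.42 ± 0.38. These 3 lay below the list median. Of the 14 transcripts, 12 had a higher mean in SEA and 7 had an unadjusted p below 0.05. In the SLAM family of leukocyte receptors 2 of 4 transcripts were called. SLAMF9 ran from 5.96 to 8.21 in SEA (median 7.35) and from 4.68 to 7.32 in MEA (median 5.37), a rise of 1.80 ± 0.37 (adjusted p = 0.0544). SLAMF1, a receptor on activated lymphocytes and dendritic cells, rose by 1.43 ± 0.38, while CD48 and CD84 differed by 0.43 ± 0.27 and -0.08 ± 0.31. Of 23 lymphocyte transcripts 1 was called, the inhibitory receptor KLRG1 (1.21 ± 0.28, adjusted p = 0.0648). CXCR6, a homing receptor of tissue T cells, rose by 1.81 ± 0.47, and GPR132, a lipid and proton sensing receptor of macrophages and lymphocytes, by 1.87 ± 0.41 (adjusted p = 0.0589). HHEX, a homeobox factor of blood and endothelial precursors, rose by 2.12 ± 0.56, and the muscle gene MYBPC3 by 2.06 ± 0.43 and 1.91 ± 0.43 on its shared probe.

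Interferon-stimulated genes were the only list with called members lower in SEA, 3 of 19, with 0 higher and a median difference of -0.48. TREX1, the exonuclease that removes cytosolic DNA, was between 9.25 and 10.202 in SEA (median 9.45) and between 10.00 and 11.30 in MEA (median 10.35). It fell by 0.92 ± 0.20 on the log2 scale (adjusted p = 0.0566), and the CTRL mean of 10.47 was at the level of MEA. CMPK2, a mitochondrial nucleotide kinase induced by interferon, fell by 1.13 ± 0.29 (adjusted p = 0.0857), with 8.54 to 10.60 in SEA and 9.81 to 11.72 in MEA. TRIM25, the ubiquitin ligase that activates RIG-I, fell by 1.22 ± 0.33 (adjusted p = 0.0889). The chemokines of this list, CXCL10 and CXCL11, differed by -0.58 ± 0.39 and -1.37 ± 0.57 without passing, and PLSCR1 by 1.33 ± 0.64 in the other direction. Without SEA 1 and MEA 3 the list held 5 lower and 2 higher calls, so its members did not move together.

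TRPV4, an ion channel that senses osmotic and mechanical stress, showed the largest fall of all transcripts. It was between 1.06 and 5.47 in SEA (median 4.23) and between 2.28 and 8.71 in MEA (median 6.86), with 5 of 8 and 9 of 10 arrays above background. The groups overlapped, and the fall of 2.74 ± 0.74 on the log2 scale had an adjusted p of 0.0889. MST1R, the receptor RON of macrophages and epithelium, fell by 1.5 ± 0.33 (adjusted p = 0.0589) and was above background in only 3 of 8 SEA-affected horses. XPC, which recognises damaged DNA, fell by 1.28 ± 0.32 and PARP16, an ADP-ribosyltransferase of the endoplasmic reticulum, by 1.10 ± 0.26. TNNI2, a troponin of fast muscle, fell by 1.84 ± 0.50, ZNF385D by 1.75 ± 0.47, PTPRZ1 by 1.58 ± 0.41, TBX1 by 1.2 ± 0.33, LNX1 by 1.16 ± 0.32 and BNIPL by 1.08 ± 0.23. 2 of these, PTPRZ1 and ZNF385D, were above background in 5 of 8 SEA-affected horses. The same probe printed for the other transcript of PTPRZ1, ENSECAT00000012244, gave -1.05 ± 0.43 and was not called (adjusted p = 0.187).

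Markers of neutrophils had higher means in SEA without passing the test. Of 15 transcripts 0 were called, 11 had an unadjusted p below 0.05, and the median difference was 1.23. TREM1, a receptor that amplifies neutrophil and monocyte activation, ran from 10.12 to 16.18 in SEA (median 14.28) and from 9.47 to 16.57 in MEA (median 10.38), with SEA 1 lowest in SEA and MEA 3 highest of both groups (2.89 ± 0.93, adjusted p = 0.122). CSF3R, the receptor of the growth factor G-CSF, differed by 1.87 ± 0.94 (adjusted p = 0.258). Without SEA 1 and MEA 3, 12 of the 15 were called higher, TREM1 at 4.06 ± 0.59 and CSF3R at 3.1 ± 0.57. The share over all transcripts, with or without a symbol, was 10.6%. These 2 horses were singled out partly by this very list, so its calls without them are circular. 2 markers had lower means in SEA by more than 0.1, the granule protein LTF (-0.33 ± 0.72) and VNN1 (-2.12 ± 0.70, adjusted p = 0.13). The summed level of the list, as the mean log2 intensity, ran from 7.86 to 11.73 in SEA, from 8.45 to 12.15 in MEA and from 7.78 to 10.19 in CTRL. Its part in the differences above was not tested.

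Of 12 macrophage marker transcripts 1 was called (SPP1), and the median difference was 0.32. The scavenger receptor MARCO of alveolar macrophages was between 9.75 and 14.22 in SEA (median 13.28) and between 12.33 and 14.91 in MEA (median 14.31), a difference of -1.32 ± 0.50 (adjusted p = 0.161). The mean of the list, SPP1 included, ran from 9.65 to 10.44 in SEA and from 8.68 to 9.99 in MEA. By the study's cytology macrophages prevailed in MEA and neutrophils in SEA, so this mean does not measure the share of macrophages. Ciliated cell genes had lower means in SEA, with a median difference of -0.51 over 54 transcripts, and other epithelial genes likewise, with -0.74 over 32, but 0 transcripts of either list were called by limma, against 4 and 8 at an unadjusted p below 0.05. RSPH10B, a radial spoke gene of cilia, differed by -1.77 ± 0.77 and the mucin MUC4 by -1.54 ± 0.67. The mean level of ciliated cell genes ran from 4.84 to 8.38 in SEA, from 6.07 to 9.49 in MEA and from 8.28 to 9.86 in CTRL. With the epithelial percentage of the cytology as a covariate, 37 transcripts were called, 35 of them among the 101. Markers of mast cells and eosinophils and of erythrocytes were each represented by 1 transcript, PRG3 (0.22 ± 0.47) and GFI1B (1.61 ± 0.65), and neither was called. Among 5 transcripts of proliferation 0 were called (median 0.61), against 3 at an unadjusted p below 0.05.

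The percentage of neutrophils counted under the microscope in the lavage of each horse was then set against the arrays. The percentages of the groups did not overlap, every SEA-affected horse being above every MEA-affected horse, so a correlation over all 18 horses would repeat the diagnosis and is not given. With the percentage as a covariate the standard error of a called difference grew from a median of 0.30 to 1.3, 0 of the 101 stayed called, 71 kept their direction and 12 had an unadjusted p below 0.05. Disease and neutrophil percentage cannot be told apart by this fit. Within the groups the relation could be read, as the change in log2 intensity per 10 percentage points of neutrophils.

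With 1 common slope within the groups, 0 of 4930 transcripts passed an adjusted p of 0.1 in limma, against 678 (13.8%) at an unadjusted p below 0.05. With quantile normalization in place of cyclic loess the count was 469, and without SEA 1 it was 7. Of the 101, 4 (3.96%) had a slope with an unadjusted p below 0.05. In 58 (57.4%) the slope had the sign of the difference, against 51.9% of all transcripts. For single transcripts, 112 relations were computed for the 56 named transcripts in both groups, and 0 passed after adjustment (smallest adjusted permutation p 0.129 in SEA and 0.288 in MEA), against 9 in SEA and 2 in MEA at an unadjusted p below 0.05. Of these, 1 in SEA (KLRG1) and 1 in MEA (PTPRZ1) concerned the 48 called transcripts, and the rest had been named for their slope. Over all transcripts such a p came with 11.1% of the slopes fitted within SEA and 4.12% of those within MEA. Among the 33 named transcripts that were higher in SEA, the median Pearson r was 0.01 within SEA and 0.02 within MEA, with 17 and 18 of them above 0. Among the 15 that were lower it was -0.11 within SEA and 0.09 within MEA. The arrays of 8 and 10 horses leave weak relations undetected, above all in MEA, where the percentages covered a narrow range and the median standard error of a slope was 0.74 per 10 points against 0.14 in SEA.

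**Figure D4:**
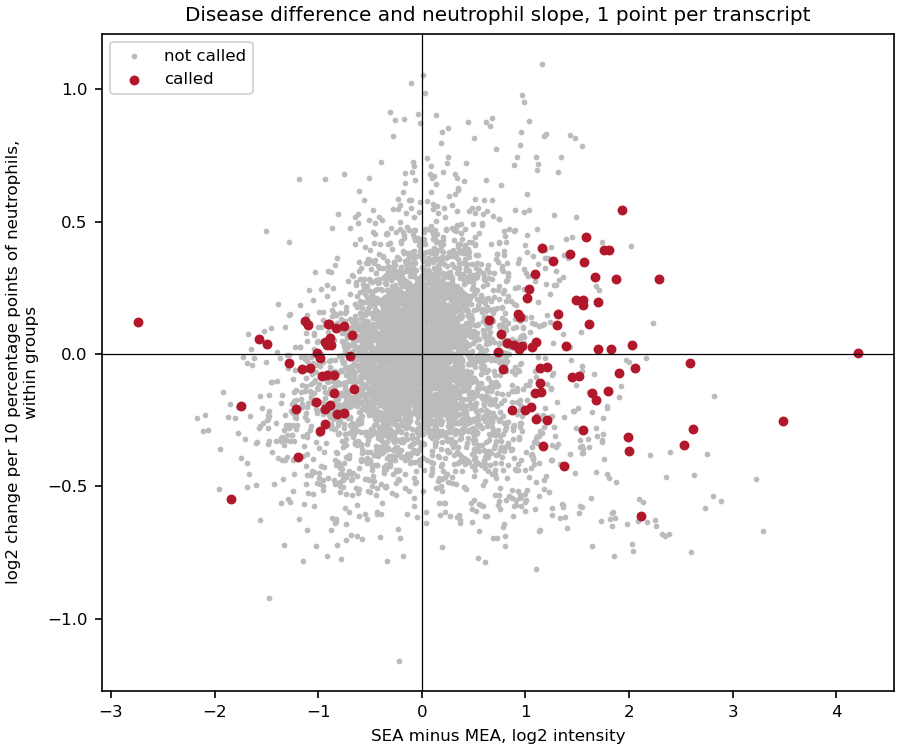
Slope of log2 intensity on the neutrophil percentage within groups (vertical axis, per 10 percentage points) against the difference SEA minus MEA (horizontal axis, log2) for 4930 transcripts, with the 101 called transcripts in red. The called transcripts lie to the far left and right but on both sides of a slope of 0, 58 of 101 with the sign of their difference.

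Among the 48 called transcripts for which relations were computed, KLRG1 had the largest absolute r over all horses of a group. Within SEA its level was inversely related to the neutrophil percentage (Pearson r = -0.837, Spearman rho = -0.833, exact permutation p = 0.00496, adjusted over the 112 relations 0.139, so short of the threshold), opposite to its higher level in the group with more neutrophils. Without SEA 6 and SEA 8, the horses farthest from the median percentage, r was -0.943. Within MEA r was 0.03. PTPRZ1, lower in SEA, had the opposite sign within MEA and also missed the adjusted threshold (r = 0.724, rho = 0.827, permutation p = 0.0206, adjusted 0.288), and without MEA 1 and MEA 2 r was 0.554. CHAC1 had r = -0.171 within SEA, but r = -0.974 without SEA 6 and SEA 8 (rho = -1, n = 6, exact permutation p = 0.00139, adjusted 0.156), so its value rested on those horses. TRIB3, EGR1, MMP1 and SPP1 had no relation past the adjusted threshold in either group.

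Fitted within SEA alone, 2 of 4930 transcripts (0.0406%) passed, and within MEA alone 1 (0.0203%). These are TSHZ3 and ENSECAT00000020167 in SEA, and KDELR3, a receptor that returns proteins to the endoplasmic reticulum, in MEA. TSHZ3, a zinc finger factor that was also named for its slope, rose by 1.13 ± 0.14 per 10 points in SEA (adjusted p = 0.0773) and by 0.37 ± 1.32 in MEA. Its lowest level, 0.45 in SEA 6, lay far from the rest of the group. Within SEA 136 transcripts were called without SEA 1, and 0 when any other horse of the group was left out. KDELR3 rose by 3.59 ± 0.45 per 10 points in MEA (adjusted p = 0.0203), with 0 calls without MEA 6 or MEA 10, and its difference between SEA and MEA was -0.49 ± 0.42. LENG1 and APP, named for the lowest slopes, had r = -0.950 and r = -0.879 within SEA, which is a description since the slope chose them. Tests of the difference between the slopes in SEA and MEA gave 0 calls, against 169 (3.43%) at an unadjusted p below 0.05.

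**Figure D5:**
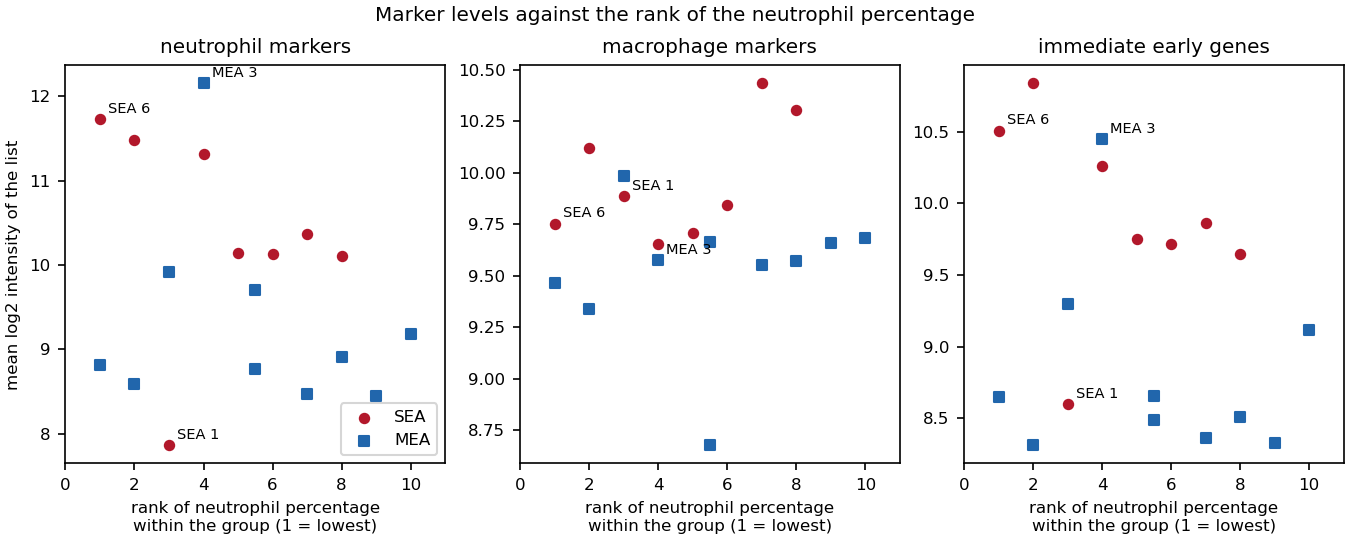
Mean log2 intensity of the neutrophil markers, macrophage markers and immediate early genes (vertical axes) against the rank of each horse's neutrophil percentage within its group (horizontal axis), SEA and MEA in separate colours. SEA 1 has the lowest neutrophil marker mean of SEA at rank 3 of 8 and MEA 3 the highest of MEA at rank 4 of 10.

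The neutrophil marker list was set against the counted percentage within the groups. The slope was below 0 in all 15 transcripts of the marker list, with a median of -0.36 per 10 points, and 0 of 15 had an unadjusted p below 0.05. Over all 4930 tested transcripts, 2563 slopes were below 0. The median slope was -0.01 over all of them and -0.11 over those with a symbol. The 15 transcripts were measured in the same horses, so their slopes are not independent. Counted from the lowest percentage, SEA 1 had rank 3 of 8 and the lowest marker mean of its group, and MEA 3 had rank 4 of 10 and the highest. SEA 6 had rank 1 of 8, far from the median percentage of SEA, and the highest marker mean of SEA (11.73). Slopes of this list without SEA 6 were not computed, so their common sign may rest on this horse. RNA and smears were taken from separate aliquots of the lavage.

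The arrays lay on 4 slides, each with SEA and MEA horses, but 1 slide held 1 SEA and 5 MEA arrays and another 3 SEA and 1 MEA array. Within slides, 81 of the 101 called transcripts (80.2%) had the same direction on all 4, against 21% of all transcripts, and the count per slide was 85, 100, 98 and 101. The 101 were chosen by their difference over these same arrays, so this agreement is largely built in and does not test the slides. With the slide as a block, 0 transcripts were called. Slide 1, on which most exceptions lay, carried SEA 1 as its only SEA array.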

How the data were processed

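RNA of BAL cells was hybridised to Agilent single-color arrays, 1 per horse, 8 SEA, 10 MEA and 7 CTRL by the diagnosis in the labels. The authors deposited the intensity of each spot from Feature Extraction 9.5.1.1, after correction of spatial trends and background on each array alone. A table of intensity values made comparable across arrays by cyclic loess (the submitters' processing notes name R 2.11.1) served as an alternative. No array held saturated spots, and no arrays were identical.

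Cyclic loess (limma 3.58.1 in R 4.3.3, 3 iterations at a span of 0.7) was run over all 25 arrays in log2 units, followed by averaging of the 2 spots per probe. A transcript entered the tests unless it lay below 4.5 on 19 or more of the 25 arrays, and 4930 did. SEA was compared with MEA on 18 arrays with lmFit and eBayes, and a call needed an adjusted p (Benjamini-Hochberg) under 0.1 together with a 1.5-fold change or more. A difference is SEA minus MEA in log2 intensity with its SE, and single adjusted p values are limma's unless a permutation test is named. Normalization between arrays makes differences relative to the bulk of the transcripts, and intensities of different probes were not compared. Where a group lies near background, the size of a fold is uncertain and is not a lower bound. The number of horses limits the precision.

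The files pair probes with Ensembl transcripts only. Symbols came from the study's supplementary tables of changed transcripts (1865 transcripts on the array, 1684 of them tested, 34.2%), so unnamed transcripts are unnamed here. The named transcripts were the 15 largest rises and 12 largest falls with a symbol, 2 without a symbol in each direction, up to 3 called members per gene list, the genes the study text names for this comparison, and the 4 highest and 4 lowest neutrophil slopes. Others are said to be named after their values were seen. The comparison, the members and the lists were chosen with earlier results of these data known. Gene lists are described by counts and medians, with no test.

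Neutrophil percentages of each horse came from the study's cytology. Slopes were fitted in limma, and relations of single transcripts within a group were tested with two-sided permutation tests (exact for 8 horses, 1e+05 resamples for 10) in scipy 1.17.1, adjusted over 112 relations. Methods were tested on simulated data. Alternatives were other normalizations, filters, tests, thresholds, batch blocks, covariates and leaving out each horse.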

Additional observations from a re-analysis of the deposited data

Results flagged for a closer look

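In 23 of 154 groups of values examined (14.9%), 1 horse lay far from the others of its group by Dixon's criterion, and chance alone does so in about 1 of 20 groups. The groups are not independent, since lists share horses and some share transcripts.

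Horse MEA 3 was the far horse in 9 of them, always as the highest of MEA. Its mean log2 intensity was 12.15 over neutrophil markers (group median 8.86), 9.90 over NF kappa B genes, 8.52 over the TNF receptor superfamily, 10.4 over immediate early genes, 8.48 over proteases and inhibitors and 10.96 over interferon-stimulated genes. It also had the highest GFI1B, the only erythrocyte marker measured (7.81), KIF1B (9.53) and MYBPC3 on the transcript ENSECAT00000029091 (6.05).

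Horse SEA 1 was the far horse in 7, always as the lowest of SEA. Its mean was 7.86 over neutrophil markers (group median 10.26) and 9.86 over cytokines and chemokines, and its GFI1B was 2.58. RELT was at 4.85, VEGFA at 3.24 and ENSECAT00000020635 at 1.45, and its array correlated with the other SEA arrays at a median of 0.852.

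Horse SEA 6 had the highest LENG1 (10.17), the highest mean of interferon-stimulated genes (10.07) and the lowest TSHZ3 (0.45) of SEA. SEA 5 had the lowest MYBPC3 on the transcript ENSECAT00000026147 (3.65). In MEA, horse MEA 7 had the lowest mean of macrophage markers (8.68), MEA 5 the lowest mean of epithelial genes other than those of cilia (5.16) and MEA 8 the highest level of ENSECAT00000021776, which has no symbol here (16.1).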

How the results depend on the processing

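The count of 101 called transcripts moved with most choices, while directions were stable. All 48 named transcripts that were called kept their direction under every alternative that measured them except the neutrophil covariate, where 36 did. The count was 0 with scaling to the 75th percentile, 40 with quantile normalization, 2 with normexp background correction, 25 with an exact rank sum test, 2 at an adjusted p below 0.05 (CHAC1 and PNPLA8), 0 with the slide and 2 with the scan date as a block (CHAC1 and ASGR2), 37 with the epithelial percentage and 1 with the neutrophil percentage as a covariate (ENSECAT00000023330, not among the 101). It was 816 with array weights, 265 with all 25 arrays in 1 fit, 188 with sex and 166 with the share of spots above background as a covariate, and, chosen after seeing the data, 716 without SEA 1 and MEA 3. It stayed within 1.5 times under the other 8 alternatives (73 with pairwise cyclic loess, also chosen after seeing the data).

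Leaving out 1 horse gave 2 to 554 calls. There were 351 without SEA 1, 2 without SEA 2, 18 without SEA 3, 43 without SEA 4, 27 without SEA 5, 205 without SEA 6, 29 without SEA 7 and 38 without SEA 8. There were 235 without MEA 1, 35 without MEA 2, 554 without MEA 3, 62 without MEA 4, 327 without MEA 5, 53 without MEA 6, 4 without MEA 7, 6 without MEA 8, 2 without MEA 9 and 3 without MEA 10. The difference in the leading principal component ran from 0.499 to 37.4 (exact permutation p down to 0.00807) and that in the second from 13.9 to 42.6 (p up to 0.245), both of these p without SEA 1. No other single horse changed either call. Calls for the neutrophil slope ran from 0 to 7 within groups, from 0 to 136 within SEA and from 0 to 2 within MEA. Quantile normalization gave 469, 0 and 0 of these calls, the slide as a block 0 within SEA and 0 within MEA, and the log odds of the percentage 0 within SEA.

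Replicate numbers do not pair the horses: the deviations of the 8 pairs of equal number correlated between -0.364 and 0.407 (median -0.05), and 2 of 8 horses correlated best with their own number. With the replicate block the count was 0.

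Directions reversed with the neutrophil covariate for VCAM1 (-2.21), GPR132 (-0.29), CXCR6 (-1.18), CCR7 (-1.24), CD1E (-0.54), MAP3K14 (-1.79 and -1.08), SLAMF1 (-1.45), HIF1AN (-1.22), TBX1 (1.76), TRIM25 (0.38) and TNNI2 (2.33), and, among transcripts named for their slope, for ATP8B4 (-5.12), TSHZ3 (-7.22), PFKFB4 (-2.64), C20orf123 (-4.76) and LENG1 (3.33). LENG1, with a difference near 0, also turned with normexp (0.0394) and when SEA 3, SEA 5, SEA 8, MEA 3 or MEA 8 was left out (-0.235 to 0.0239 over all horses), and KIF1B without SEA 6 (-0.0078 to 0.338). The causes were not tested.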

Other observations

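Histone genes of the replication-dependent cluster, which were in no list, were among the transcripts lower in SEA, and are named here after their values were seen. HIST1H4D fell by 0.90 ± 0.24 and 0.90 ± 0.25 on the log2 scale in 2 transcripts, HIST1H4E by 0.83 ± 0.22, HIST1H2BL by 0.69 ± 0.17 and HIST1H2AI by 0.67 ± 0.18. Their CTRL means (12.57, 13.44, 12.44, 9.06 and 12.42) lay near or above the MEA medians of 12.52, 13.35, 12.38, 9.21 and 12.26. Another HIST1H4D transcript, ENSECAT00000004418, was not called (-0.95 ± 0.28, adjusted p = 0.107). Nor was another of HIST1H4E, ENSECAT00000003302 (-0.77 ± 0.23, adjusted p = 0.112). Histone genes of one class are alike in sequence, so these probes may share RNA and are uncertain as separate genes. SPHK1, the kinase that makes sphingosine 1-phosphate, fell by 0.82 ± 0.22 and CRYAB, a small heat shock protein, by 0.89 ± 0.25. IFI27L1 fell by 0.75 ± 0.21 and 0.94 ± 0.26 in 2 transcripts, and IRF2BPL by 0.89 ± 0.24 and 0.91 ± 0.24 in 2 transcripts with the same probe.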
